A study of Capra hircus with 6 samples.

Results

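TGF-beta superfamily genes, a set of 51 ligands, receptors, secreted antagonists, latent binding proteins and SMADs, were examined in goat (Capra hircus) adipose mesenchymal stem cells. They were chosen by name for their place in the pathway, and 49 of the 51 were found among the 16262 gene symbols of the FPKM tables. CHRDL1 and NBL1 were not analysed here. RNA was sequenced from 3 libraries of cells that overexpress TAZ and from 3 libraries of WT control cells, and both groups are labelled as under adipogenic differentiation. TAZ is a transcriptional coactivator of the Hippo pathway encoded by WWTR1, and the stated question was how it affects adipogenesis. The labels name neither the vector, the number of clones nor the animals, and they do not say whether replicates were separate cultures, so the p-values speak only to how far these libraries vary, a variation that may be technical. The series title names TNF-α, but no sample label records a cytokine.

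Ligands of this family are secreted dimers that bring together type I and type II receptor kinases. TGF-betas and activins pass their signal to SMAD2 and SMAD3, and BMPs to SMAD1, SMAD5 and SMAD9, and both sets of SMADs enter the nucleus with the shared SMAD4. Secreted antagonists hold ligands away from receptors, latent TGF-beta binding proteins tether the inactive TGF-beta complex to the matrix, and inhibitory SMADs, SMURF ubiquitin ligases and the SKI co-repressors damp the signal inside the cell. In fat tissue BMPs are known to commit stromal precursors to the fat lineage, and TGF-beta is known to hold back their differentiation.

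Library totals, recovered from the steps between low FPKM values, ran from 17035481 to 18852822 fragments in the TAZ libraries and from 16935699 to 17483995 in the control libraries. Correlations of log2 values across genes were 0.9925 to 0.9956 within groups and 0.9412 to 0.951 between groups. WWTR1 stood at 84.6, 118.1 and 84.2 FPKM in TAZ replicates 1, 2 and 3, against 30.2, 29.9 and 35.9 FPKM in control replicates 1, 2 and 3 (log2 fold change 1.54, SE 0.13, limma adjusted p = 6.91e-07). All 10 mesenchymal stromal markers passed the filter on low values, against 2 of 10 adipocyte markers, and PPARG, the receptor that drives cells to become adipocytes, was at 0.0834 ± 0.0741 FPKM in TAZ libraries and 0.058 ± 0.0189 FPKM in control libraries (SD, n = 3 each). The 2 that passed were CIDEC and LIPE. CIDEC was at 17.8 ± 1.29 FPKM in TAZ libraries and 18.3 ± 1.31 FPKM in control libraries. LIPE rose, at 2.13 ± 0.111 FPKM in TAZ libraries and 1.01 ± 0.114 FPKM in control libraries (limma adjusted p = 0.000168). In such bulk samples, fewer cells of a type and less RNA per cell cannot be told apart.

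The pathway moved in both directions, with the 6 largest log2 fold changes among secreted proteins. FST, GREM1 and LTBP3 fell, LTBP1 rose, TGFB1, TGFB3 and BMP2 fell, and the SMAD genes SMAD3, SMAD6 and SMAD9 fell, whereas none of the 4 tested type I receptors passed. Of the 37 members that reached 1 FPKM in 3 or more libraries, 7 rose and 13 fell at a limma adjusted p under 0.05, and 17 did not pass. The 20 called members make up 54.1% of those tested, and the same test called 37.9% of all 10750 tested genes, 15.7% as higher and 22.1% as lower in TAZ libraries. BMP2 passed the filter only through its control values, and of the other 36 members 7 rose and 12 fell. The median log2 fold change was -0.037 over the 37 members and -0.05 over all tested genes. With median-ratio scaling 10 members rose and 13 fell, and genes higher in TAZ libraries made up 52.4% of all calls, against 41.6% of calls on the values as deposited. The values of both groups did not overlap for 24 of the 37 members, against 48.4% of all tested genes.

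By branch, 4 of 18 tested members assigned to TGF-beta and activin rose and 8 fell. In the BMP branch 1 of 11 rose and 4 fell, and among 8 members that serve both branches or neither, 2 rose and 1 fell. The shares called were 66.7%, 45.5% and 37.5% in this order, against 37.9% of all tested genes. BMP2, 1 of the 4 that fell in the BMP branch, passed the filter only through its control values. The branch medians were -0.12, -0.16 and 0.21 on the log2 scale. Without control replicate 2 the TGF-beta and activin members that rose were 2 in place of 4. Whether the branches differ from each other was not tested. Log2 fold changes throughout are TAZ minus control values of log2(FPKM + 1), so those of weakly expressed genes are smaller than the ratios of their FPKM.

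**Figure D1:**
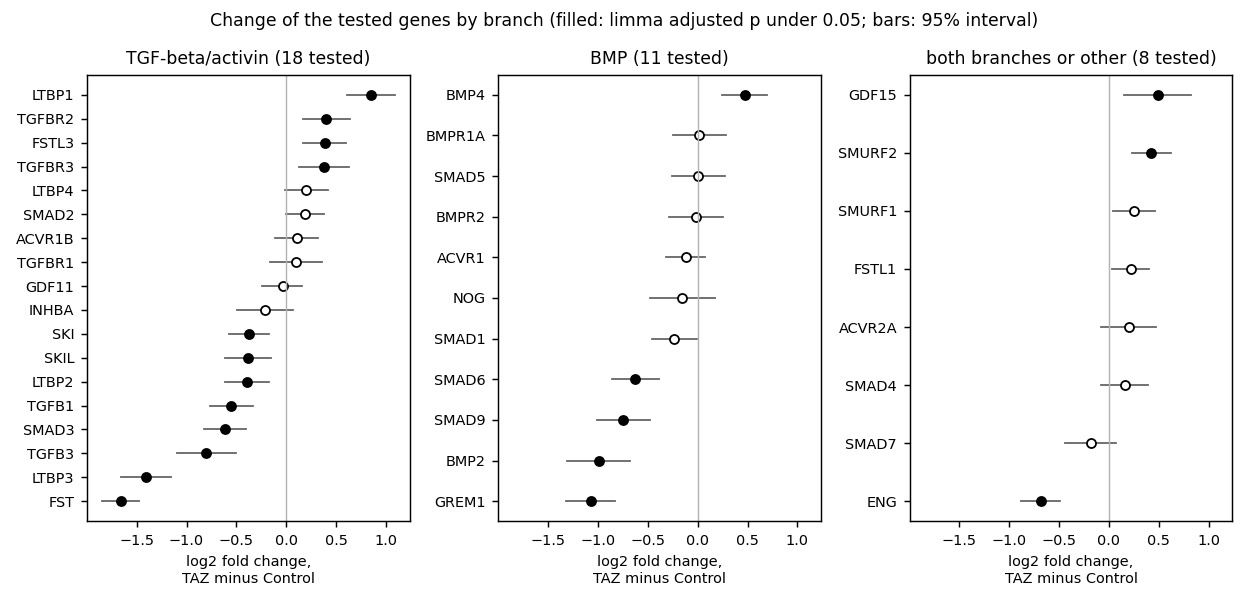
Log2 fold change (TAZ minus control, log2(FPKM + 1) scale) of the 37 tested members in 3 branches, with 95% intervals and filled points at a limma adjusted p under 0.05. FST at -1.66 and LTBP3 at -1.41 lie lowest, and LTBP1 at 0.85 lies highest.

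**Figure D2:**
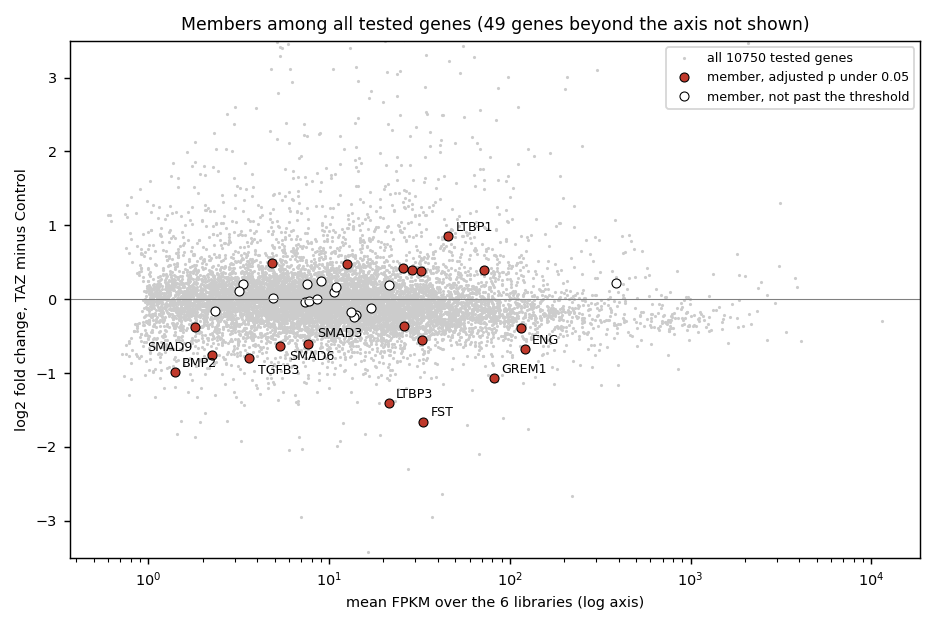
Log2 fold change against mean FPKM over the 6 libraries (log axis) for all 10750 tested genes in grey and the 37 members as circles, red where called. Members lie between -1.66 and 0.85, within the range of all genes, of which 49 fall beyond the axis.

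Among the TGF-beta ligands, TGFB1 was the most abundant and fell. It stood at 24.2, 29.7 and 25.6 FPKM in TAZ replicates 1, 2 and 3, against 43.1, 38.5 and 35.9 FPKM in control replicates 1, 2 and 3. Every TAZ library lay below every control library (log2 fold change -0.55, SE 0.1, limma adjusted p = 0.000916). TGFB3, an isoform that binds the same receptors, fell to 0.479 times the control level. Its values were 2.54, 2.06 and 2.4 FPKM in TAZ libraries and 3.54, 5.21 and 5.86 FPKM in control libraries, again without overlap (log2 fold change -0.8, SE 0.14, adjusted p = 0.000586). TGFB2 was below the filter, at 5 fragments in all TAZ libraries together and 13 in all control libraries. TGFB1 made up 91.8% ± 1.53 of the summed FPKM of the 3 isoforms in TAZ libraries and 88.7% ± 3.34 in control libraries (SD, n = 3 each), and that sum was 28.9 ± 2.61 and 44.1 ± 2.48 FPKM.

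The activin genes were less clear. INHBA, which encodes the subunit of activin A, stood at 12.1, 13.2 and 13.4 FPKM in TAZ libraries, against 12.8, 19.3 and 13.8 FPKM in control libraries. The groups overlapped, control replicate 2 was the highest, and the gene did not pass (log2 fold change -0.21, 95% interval -0.49 to 0.068, limma adjusted p = 0.22). INHBB, the subunit of activin B, was below the filter at 0.389 ± 0.0862 FPKM in TAZ libraries and 0.873 ± 0.287 FPKM in control libraries, and fell when limma was run with no filter (adjusted p = 0.0356), a fit that called 25.2% of 16021 genes. GDF11, a ligand that uses activin receptors, stood at 7.23 ± 0.33 FPKM in TAZ libraries and 7.45 ± 0.333 FPKM in control libraries, with a 95% interval of the log2 fold change from -0.24 to 0.16.

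The BMP ligands BMP2 and BMP4, which are close relatives, moved in opposite directions. BMP2 was at 0.463, 0.439 and 0.896 FPKM in TAZ libraries, against 2.92, 1.66 and 2.02 FPKM in control libraries. These values came from 43.5 fragments over the TAZ libraries and 152 over the control libraries (log2 fold change -0.99, SE 0.15, limma adjusted p = 0.000152). Every TAZ value lay below the filter of 1 FPKM, so BMP2 could enter the test only by being higher in control libraries. BMP4 was the more abundant of this pair and was higher in every TAZ library. It stood at 14.4, 13.1 and 16.8 FPKM in TAZ libraries and at 9.8, 11.2 and 9.93 FPKM in control libraries (log2 fold change 0.47, SE 0.11, adjusted p = 0.00344). BMP6, BMP7, GDF5 and GDF6 were near 0, with 0.5 to 4.5 fragments over the TAZ libraries and 0 to 3 over the control libraries, so that a difference was not detectable at this depth. Where a library is at 0, a level of up to 3 fragments would still be allowed. GDF10, a relative of the inhibitory ligand BMP3, was likewise low, at 8 and 16.5 fragments over the TAZ and control libraries.

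GDF15, a distant member induced by cell stress, rose to 1.49 times the control level. Its values of 5.24, 4.93 and 7.19 FPKM in TAZ libraries overlapped those of 3.33, 5.15 and 3.15 FPKM in control libraries (log2 fold change 0.49, SE 0.16, limma adjusted p = 0.0269). The call was lost without TAZ replicate 3, control replicate 1 or control replicate 3 (adjusted p = 0.11, 0.0881 and 0.0611), with no filter (0.121) and under quantile normalization (0.0558), and with single libraries left out its adjusted p ran from 0.00224 to 0.11.

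**Figure D3:**
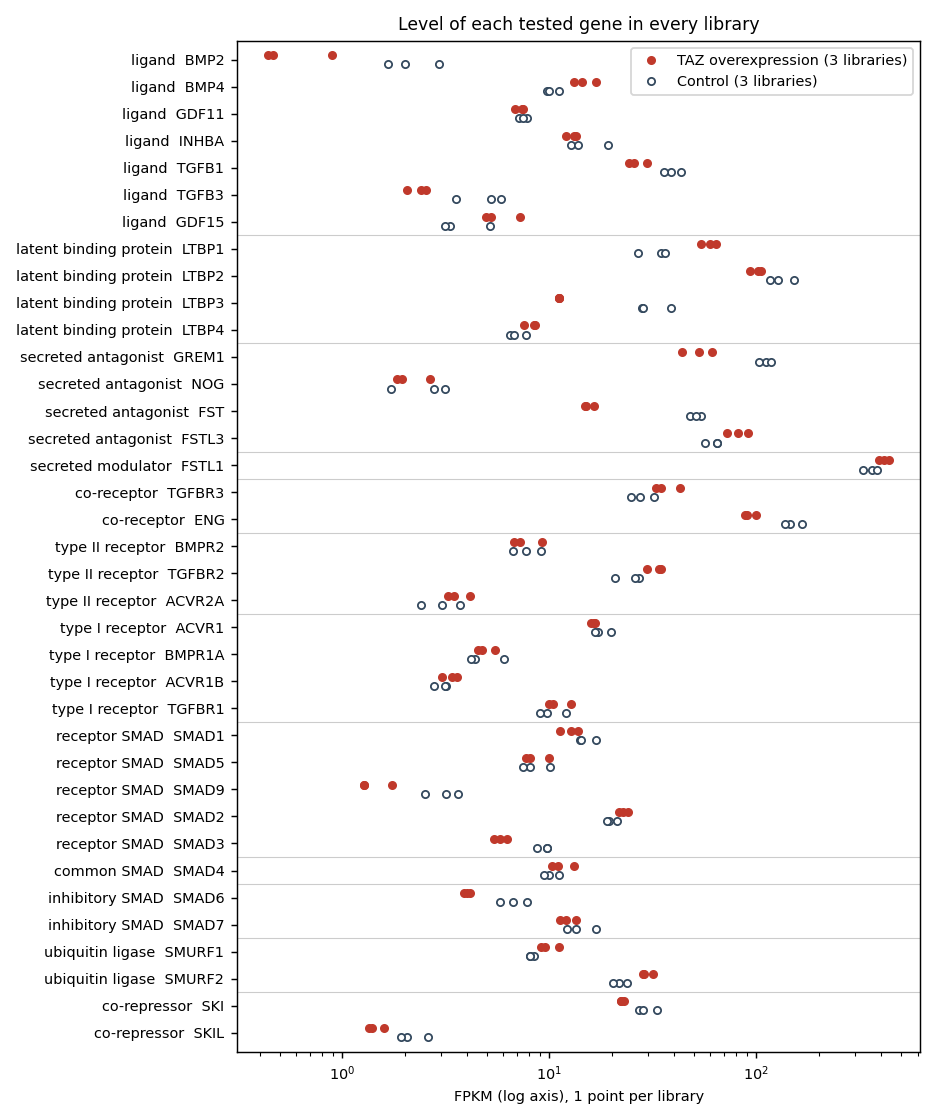
FPKM (log axis) of the 37 tested members in every library, grouped by role, with TAZ libraries as filled red points above control libraries as open points. FST, GREM1, LTBP1 and LTBP3 show separated groups, whereas those of BMPR1A, BMPR2 and SMAD5 overlap.

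The latent TGF-beta binding proteins changed their makeup more than their sum. LTBP1, which binds latent TGF-beta and anchors it in the matrix, stood at 63.5, 59.5 and 54.2 FPKM in TAZ libraries, against 34.5, 26.7 and 36.4 FPKM in control libraries. All TAZ libraries were above all control libraries (log2 fold change 0.85, SE 0.11, limma adjusted p = 6.31e-05). LTBP3, which also binds latent TGF-beta, moved the other way, at 11.2 FPKM in each TAZ library and at 38.9, 27.9 and 28.4 FPKM in control libraries. The groups lay far apart, and LTBP3 fell to 0.353 times the control level (log2 fold change -1.41, SE 0.12, adjusted p = 7.78e-07).

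LTBP2, an elastic fibre protein that does not bind latent TGF-beta, fell to 0.759 times the control level. It was at 102, 105.3 and 93.2 FPKM in TAZ libraries and at 151.8, 116.4 and 127.7 FPKM in control libraries (log2 fold change -0.39, SE 0.1, limma adjusted p = 0.00882). LTBP4 did not pass at 8.18 ± 0.511 FPKM in TAZ libraries and 7 ± 0.666 FPKM in control libraries (adjusted p = 0.129). The summed level of the 4 genes was 178.6 ± 9.99 FPKM in TAZ libraries and 203.3 ± 26.7 FPKM in control libraries, with overlap. Within that sum LTBP1 held 34.3%, 32.4% and 32.4% in TAZ libraries, against 14.9%, 14.9% and 18.3% in control libraries, and LTBP3 held 6.28% ± 0.379 and 15.6% ± 1.27.

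Of the secreted antagonists, FST fell furthest, to 0.302 times the control level, beside 0.272 times for the weakly expressed ligand BMP2. FST encodes follistatin, which binds activins nearly irreversibly, and it stood at 15, 14.8 and 16.4 FPKM in TAZ libraries, against 47.9, 54.3 and 51 FPKM in control libraries. The groups lay far apart and each was narrow (log2 fold change -1.66, SE 0.087, limma adjusted p = 7.45e-09). FSTL3, a follistatin relative that also binds activins, rose to 1.32 times the control level. It was at 72, 91.3 and 81.3 FPKM in TAZ libraries and at 64.9, 64.5 and 56.4 FPKM in control libraries (log2 fold change 0.39, SE 0.1, adjusted p = 0.00828). FSTL3 was therefore 5.3 ± 0.751 times the level of FST in TAZ libraries and 1.22 ± 0.127 times in control libraries (SD, n = 3 each).

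GREM1 encodes gremlin, which binds BMP2 and BMP4. It stood at 61.2, 43.6 and 52.8 FPKM in TAZ libraries, against 111.9, 103 and 117.5 FPKM in control libraries. No values overlapped (log2 fold change -1.07, SE 0.11, limma adjusted p = 7.33e-06). NOG, which encodes noggin, did not pass at 1.95, 1.83 and 2.66 FPKM in TAZ libraries and 2.79, 3.12 and 1.72 FPKM in control libraries (adjusted p = 0.436). Control replicate 3 was the lowest of its group, and without it NOG fell past the threshold (adjusted p = 0.042). CHRD, which encodes chordin, was near 0 with 8 fragments over the TAZ libraries and 11 over the control libraries. FSTL1, a secreted glycoprotein of the follistatin family, was the most abundant member at 414.9 ± 22.8 FPKM in TAZ libraries and 357.3 ± 28 FPKM in control libraries (adjusted p = 0.0659). It passed as higher without control replicate 3 (0.0347), under median-ratio scaling (0.0369) and under quantile normalization (0.0259).

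Ratios of ligand to antagonist within each library, chosen after the values were seen, differed in direction with the pair. BMP4 was at 0.235, 0.3 and 0.318 times the FPKM of GREM1 in TAZ libraries, against 0.0875, 0.109 and 0.0846 times in control libraries. INHBA was at 0.804, 0.891 and 0.817 times the FPKM of FST in TAZ libraries, against 0.268, 0.354 and 0.27 times in control libraries. Both ratios were higher in every TAZ library. Over the other activin antagonist, INHBA was lower in TAZ libraries, at 0.168, 0.144 and 0.165 times the FPKM of FSTL3, against 0.197, 0.298 and 0.244 times in control libraries. Over the sum of FST and FSTL3 it was at 0.133 ± 0.00794 times in TAZ libraries and 0.135 ± 0.0248 times in control libraries, with overlap. BMP2 was at 0.00757, 0.0101 and 0.017 times the FPKM of GREM1 in TAZ libraries and 0.0261, 0.0162 and 0.0172 times in control libraries, also with overlap. These are ratios of transcript levels per length, not of proteins.

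**Figure D4:**
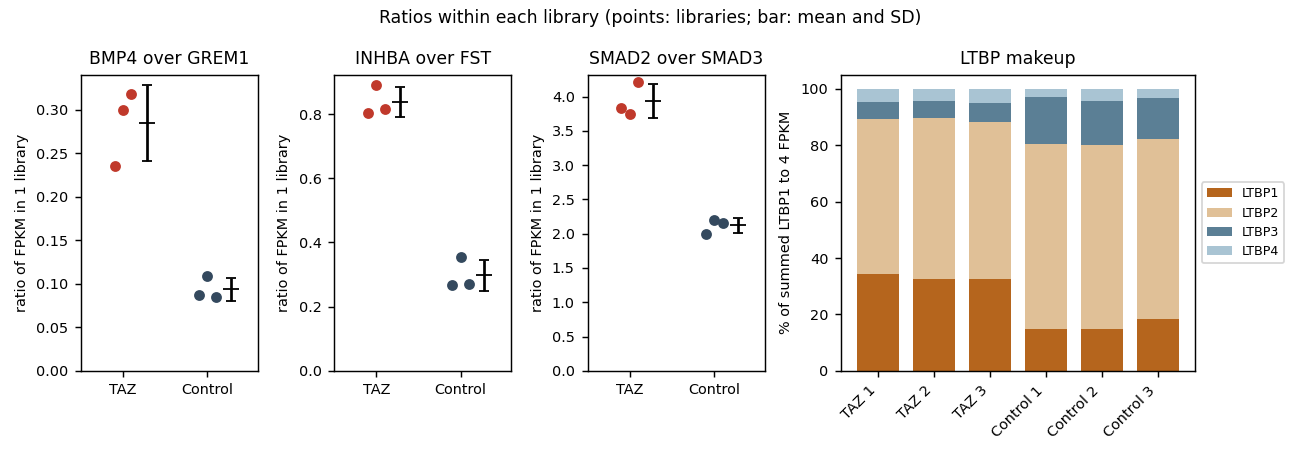
Ratios of FPKM within each library (points, with mean and SD beside them) for BMP4 over GREM1, INHBA over FST and SMAD2 over SMAD3, and the percentage of the summed FPKM of LTBP1 to LTBP4 held by each gene. SMAD2 is 3.93 ± 0.245 times SMAD3 in TAZ libraries and 2.12 ± 0.107 times in control libraries.

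None of the 4 tested type I receptors passed, and of the 3 tested type II receptors TGFBR2 rose. TGFBR1, the type I receptor of TGF-beta, was at 12.8, 10 and 10.4 FPKM in TAZ libraries and 9.71, 9 and 12 FPKM in control libraries. Its 95% interval of the log2 fold change ran from -0.16 to 0.36. ACVR1B, the activin type I receptor, was at 3.4, 3.6 and 3.03 FPKM in TAZ libraries and 3.18, 2.78 and 3.12 FPKM in control libraries, with an interval of -0.11 to 0.32. ACVR1 and BMPR1A both serve BMPs. ACVR1 was slightly lower in every TAZ library, at 16.5, 16.6 and 15.9 FPKM, than in the control libraries at 17.1, 16.7 and 19.9 FPKM (interval -0.32 to 0.078). BMPR1A overlapped, at 5.44, 4.74 and 4.52 FPKM in TAZ libraries and 4.38, 4.2 and 6.04 FPKM in control libraries (interval -0.25 to 0.28). BMPR1B was below the filter at 0.388, 0.405 and 0.371 FPKM in TAZ libraries, against 1.01, 0.662 and 0.84 FPKM in control libraries, and fell in the fit with no filter (limma adjusted p = 0.00758). ACVRL1, a type I receptor best known from endothelium, was at 0.429, 0.585 and 0.22 FPKM in TAZ libraries and 0.121, 0.192 and 0.103 FPKM in control libraries. Its groups did not overlap, and it did not pass in that fit (adjusted p = 0.0546).

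Of the type II receptors, TGFBR2, which binds TGF-beta first, rose to 1.33 times the control level. It was at 34.6, 33.8 and 29.6 FPKM in TAZ libraries and at 27.1, 20.7 and 25.9 FPKM in control libraries (log2 fold change 0.4, SE 0.11, limma adjusted p = 0.011). The lowest value was that of control replicate 2, without which the call was lost (adjusted p = 0.0516). BMPR2, the BMP type II receptor, was at 7.74 ± 1.3 FPKM in TAZ libraries and 7.85 ± 1.21 FPKM in control libraries (95% interval -0.29 to 0.25). ACVR2A, a type II receptor of activins and BMPs, was at 3.62 ± 0.456 FPKM in TAZ libraries and 3.06 ± 0.656 FPKM in control libraries (adjusted p = 0.244). It overlaps ORC4 in the RefSeq ARS1.2 gene table, and ORC4 stood at 3.73 ± 0.272 and 3 ± 0.377 FPKM in TAZ and control libraries. ACVR2B was below the filter, with 100.5 fragments over the TAZ libraries and 61 over the control libraries.

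The co-receptors went opposite ways. ENG encodes endoglin, a TGF-beta and BMP co-receptor that is also a surface marker of stromal cells. It stood at 88.6, 99.5 and 90.4 FPKM in TAZ libraries, against 166.6, 145.3 and 138.1 FPKM in control libraries, with no overlap (log2 fold change -0.68, SE 0.091, limma adjusted p = 6.54e-05). ENG is also high in endothelium, and the 8 measured of 10 endothelial markers summed to 5.83 to 6.34 FPKM in TAZ libraries and 10.2 to 11.2 FPKM in control libraries. ERG made up most of that sum at 5.77 ± 0.311 FPKM in TAZ libraries and 10.1 ± 0.525 FPKM in control libraries. The defining marker PECAM1 was at 0.0928 ± 0.0318 FPKM in TAZ libraries and 0.369 ± 0.0842 FPKM in control libraries, CDH5 had 0 and 1 fragments over the TAZ and control libraries, and KDR was listed at 0 in all 6. VWF went the other way, with 36.5 fragments over the TAZ libraries and 14.5 over the control libraries. TEK was level, at 0.0572 ± 0.0311 FPKM in TAZ libraries and 0.0577 ± 0.0326 FPKM in control libraries.

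TGFBR3, which encodes betaglycan, the co-receptor that presents TGF-beta to its receptors and also binds inhibin, rose to 1.31 times the control level. Its values of 42.8, 32.8 and 34.8 FPKM in TAZ libraries lay close above those of 27.5, 24.7 and 31.9 FPKM in control libraries (log2 fold change 0.38, SE 0.12, limma adjusted p = 0.0209). The call was lost without TAZ replicate 1 (adjusted p = 0.0952), without control replicate 2 (0.0843) and with no filter (0.0761). BAMBI, a decoy receptor with no kinase domain, was near 0 with 8.5 fragments over the TAZ libraries and 8 over the control libraries.

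SMAD genes moved within both branches. SMAD3 fell to 0.619 times the control level, at 6.27, 5.79 and 5.4 FPKM in TAZ libraries and 9.71, 8.71 and 9.78 FPKM in control libraries (log2 fold change -0.61, SE 0.097, limma adjusted p = 0.000274). SMAD2, its partner in the same branch, was higher in every TAZ library at 24, 21.7 and 22.7 FPKM than in the control libraries at 19.4, 19.1 and 21.2 FPKM, but did not pass (adjusted p = 0.107) except under median-ratio scaling (0.0442). SMAD2 was 3.83, 3.75 and 4.21 times the level of SMAD3 in TAZ libraries and 2, 2.2 and 2.16 times in control libraries.

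In the BMP branch SMAD9, the least abundant receptor SMAD, fell to 0.463 times the control level. It was at 1.75, 1.28 and 1.27 FPKM in TAZ libraries, against 3.18, 2.5 and 3.61 FPKM in control libraries (log2 fold change -0.75, SE 0.12, limma adjusted p = 0.000346). SMAD1 lay lower in every TAZ library, at 13.8, 11.3 and 12.8 FPKM against 14, 14.2 and 16.9 FPKM in control libraries, but did not pass (adjusted p = 0.0953). SMAD5 was at 8.57 ± 1.19 FPKM in TAZ libraries and 8.54 ± 1.37 FPKM in control libraries (95% interval -0.26 to 0.27), and SMAD4, the shared partner, at 11.5 ± 1.53 FPKM in TAZ libraries and 10.2 ± 0.925 FPKM in control libraries (adjusted p = 0.282).

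Of the inhibitory SMADs, SMAD6, which acts mainly on BMP receptors, fell. It stood at 4.12, 3.86 and 3.99 FPKM in TAZ libraries and at 7.81, 6.66 and 5.77 FPKM in control libraries (log2 fold change -0.63, SE 0.11, limma adjusted p = 0.000594). SMAD7, which blocks both branches, was at 12, 13.5 and 11.3 FPKM in TAZ libraries and 16.8, 12.2 and 13.5 FPKM in control libraries. Its groups overlapped and it did not pass (95% interval -0.44 to 0.069, adjusted p = 0.237).

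SMURF2, a ubiquitin ligase that marks receptors and SMADs for breakdown, rose to 1.36 times the control level. It was at 31.6, 28.7 and 28.3 FPKM in TAZ libraries and at 21.6, 20.2 and 23.7 FPKM in control libraries (log2 fold change 0.42, SE 0.091, limma adjusted p = 0.00274). Its relative SMURF1 was higher in every TAZ library at 9.57, 11.1 and 9.15 FPKM than in the control libraries at 8.44, 8.03 and 8.07 FPKM, without passing (adjusted p = 0.0602). SMURF1 passed under median-ratio scaling (0.0295) and in a voom fit of the recovered fragments (0.0464).

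Both SMAD co-repressors fell. SKI stood at 22.1, 23 and 22.3 FPKM in TAZ libraries and at 33.1, 27.2 and 28.3 FPKM in control libraries (log2 fold change -0.37, SE 0.092, limma adjusted p = 0.00653). SKIL, which TGF-beta itself is known to induce, stood at 1.6, 1.39 and 1.35 FPKM in TAZ libraries and 2.06, 1.92 and 2.59 FPKM in control libraries (log2 fold change -0.38, SE 0.11, adjusted p = 0.0126).

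Within groups, many members varied together. Of the 37 tested members, 20, 9 and 8 had their highest TAZ value in TAZ replicates 1, 2 and 3, against 39.6%, 31.4% and 29% of all tested genes. Their highest control value lay in control replicates 1, 2 and 3 for 13, 6 and 18 members, against 34.4%, 25.4% and 40.2% of all tested genes. Of the members 17, or 45.9%, were highest both in TAZ replicate 1 among TAZ libraries and in control replicate 3 among control libraries, a pattern held by 28.9% of all tested genes. They were TGFB3, TGFBR1, TGFBR3, ACVR2A, BMPR1A, BMPR2, FSTL1, GREM1, LTBP1, SMAD1, SMAD2, SMAD3, SMAD4, SMAD5, SMAD9, SMURF2 and SKIL. Genes with this pattern had a median recovered length of 4343 bases, against 2950 for all tested genes, and the members' median length was 4569 bases. Across 10749 genes, which are not independent replicates, the deviation of TAZ replicate 1 from the other 2 TAZ libraries had a Spearman correlation of 0.45 with length, and that of control replicate 3 from the other 2 control libraries one of 0.43. For TAZ replicate 3 and control replicate 2 these were -0.5 and -0.49. The part of this variation in the members' calls was not tested beyond leaving libraries out. Without TAZ replicate 1 and control replicate 3 together, an alternative chosen after seeing the data, 5 members rose and 12 fell, and the calls of TGFBR2 (limma adjusted p = 0.0629), GDF15 (0.149) and LTBP2 (0.0539) were lost.

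Other genes of the pathway, which are not members, were counted from lists of its parts. Of 18 tested extracellular modulators 7 rose and 3 fell, a share of calls of 55.6% against 37.9% over all genes, with a median log2 fold change of 0.13. ITGB8, an integrin subunit that activates latent TGF-beta, stood at 15.2 ± 2.04 FPKM in TAZ libraries and 5.89 ± 0.865 FPKM in control libraries (log2 fold change 1.24, SE 0.12, limma adjusted p = 3.04e-06). THBS1, which encodes thrombospondin 1, another known activator, was at 538.5 ± 71.3 FPKM in TAZ libraries and 297.9 ± 40 FPKM in control libraries (adjusted p = 7.2e-05). The proteoglycan genes ASPN and BGN, whose proteins bind TGF-beta, fell to 0.15 and 0.617 times the control level. The proteoglycan gene DCN went the other way, at 2188 ± 270.5 FPKM in TAZ libraries and 1430 ± 121.8 FPKM in control libraries (limma adjusted p = 0.00059). FMOD, also of this kind, did not pass at 125.9 ± 15.1 FPKM in TAZ libraries and 115.9 ± 21.4 FPKM in control libraries (adjusted p = 0.463). BMP1, which despite its name encodes a metalloprotease that cleaves procollagen and chordin, rose to 1.37 times.

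Among 31 tested intracellular modulators 6 rose, 4 fell and 21 did not pass, with a median of -0.045, a share of calls of 32.3% against 37.9% over all genes. ZEB2, a SMAD-binding repressor, was at 15.9 ± 2.05 FPKM in TAZ libraries and 8.58 ± 1.2 FPKM in control libraries (limma adjusted p = 0.000111). WWP2, a ubiquitin ligase of SMADs, and TAB2, an adaptor of the TAK1 kinase, rose to 1.64 and 1.39 times the control level. PMEPA1, a TGF-beta target that holds SMAD2 and SMAD3 from the receptor, fell to 0.701 times.

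Few other ligands or receptors were expressed. Of 10 further genes named as ligands in the tables only BMP1 and GDF1 were tested, and GDF1 fell to 0.489 times the control level. In human and mouse GDF1 shares a transcript with CERS1, so its level here is uncertain. Of 4 tested further receptors, co-receptors and receptor-associated genes 0 rose and 3 fell, where 22.1% of all tested genes fell. RGMB, a BMP co-receptor, was at 12.1 ± 0.509 FPKM in TAZ libraries and 15.6 ± 0.87 FPKM in control libraries (limma adjusted p = 0.00826). NEO1, the receptor of the RGM proteins, fell to 0.644 times the control level. TGFBRAP1, a TGF-beta receptor-associated protein, fell to 0.809 times (adjusted p = 0.0267), a call lost without any 1 of the TAZ libraries or control replicate 1 (0.0533 to 0.111), without TAZ replicate 1 and control replicate 3 together (0.0542), under median-ratio scaling (0.0572) and with a replicate block (0.0824). RGMA, a relative of RGMB, did not pass at 1.11 ± 0.0793 FPKM in TAZ libraries and 1.48 ± 0.211 FPKM in control libraries (adjusted p = 0.0846).

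Genes known to respond to TGF-beta mostly fell. Of 28 tested TGF-beta response genes 5 rose and 17 fell, or 78.6% called against 37.9% of all tested genes, with a median log2 fold change of -0.39. TGFBI, a matrix protein named for its induction by TGF-beta, stood at 1285 ± 35.8 FPKM in TAZ libraries and 1948 ± 73.4 FPKM in control libraries (log2 fold change -0.6, SE 0.081, limma adjusted p = 7.2e-05). CTGF and IGFBP5 fell to 0.518 and 0.527 times the control level, while IGFBP3, an IGF-binding protein gene, rose to 8.93 times. CTGF is also a known TAZ target. The others that rose were SNAI1, COL3A1, TGIF1 and CDKN1A, of which COL3A1 (limma adjusted p = 0.0235) lost its call without TAZ replicate 1 (0.0963), TAZ replicate 3 (0.082) or control replicate 1 (0.118). The smooth muscle genes ACTA2 and TAGLN stood at 194.8 ± 39.3 and 557.8 ± 54.5 FPKM in TAZ libraries, against 441.9 ± 112.6 and 945.3 ± 158.4 FPKM in control libraries. Pericyte and smooth muscle markers, 10 of 10 measured, summed to 231.7 to 301.1 FPKM in TAZ libraries and 400.3 to 622.2 FPKM in control libraries, with 4 tested, of which CNN1 and NOTCH3 rose and ACTA2 fell. RGS5 and MYH11 were below 0.2 FPKM in both groups, and the part of such cells in these results was not tested.

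Of 19 tested BMP response genes 4 rose and 12 fell, or 84.2% called against 37.9% of all tested genes, with a median log2 fold change of -0.57. Of the 12 that fell, ATOH8, SP7, GATA2 and SMOC1 passed the filter only through their control values and could enter the test only by being higher there. Of the other 15, 4 rose and 8 fell, with a median of -0.30. GREM1, SMAD6 and SMAD9 among those 8 are members already described, and the rest were ID1, ID2, DLX3, RUNX2 and SMOC2. Outside the members and the genes that entered through control values, the list therefore went both ways. The calls of RUNX2, SMOC2 and MSX2 were lost with single libraries left out (limma adjusted p up to 0.152, 0.0678 and 0.123). ID1 and ATOH8, immediate targets of BMP signalling, were at 59.2 ± 11 and 0.205 ± 0.0525 FPKM in TAZ libraries and at 382.3 ± 82.6 and 3.44 ± 0.8 FPKM in control libraries. ID4, HEY1, MSX1 and MSX2 rose to 2.76, 2.85, 1.85 and 1.31 times the control level (limma adjusted p = 4.31e-06, 0.000189, 9.83e-05 and 0.0296). ID2 fell to 0.58 times. ID3 did not pass at 121.7 ± 12.1 FPKM in TAZ libraries and 96.2 ± 20 FPKM in control libraries (limma adjusted p = 0.053). Without TAZ replicate 1 or control replicate 2, ID3 passed as higher (0.0318 and 0.013). SMOC1, a secreted BMP modulator, was at 0.19 ± 0.0402 FPKM in TAZ libraries and 1.98 ± 0.315 FPKM in control libraries. Of the 19 tested genes 5 are also members, namely GREM1, NOG, SMAD6, SMAD7 and SMAD9, as are LTBP2, SKIL and SMAD7 among the 28 of TGF-beta.

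**Figure D5:**
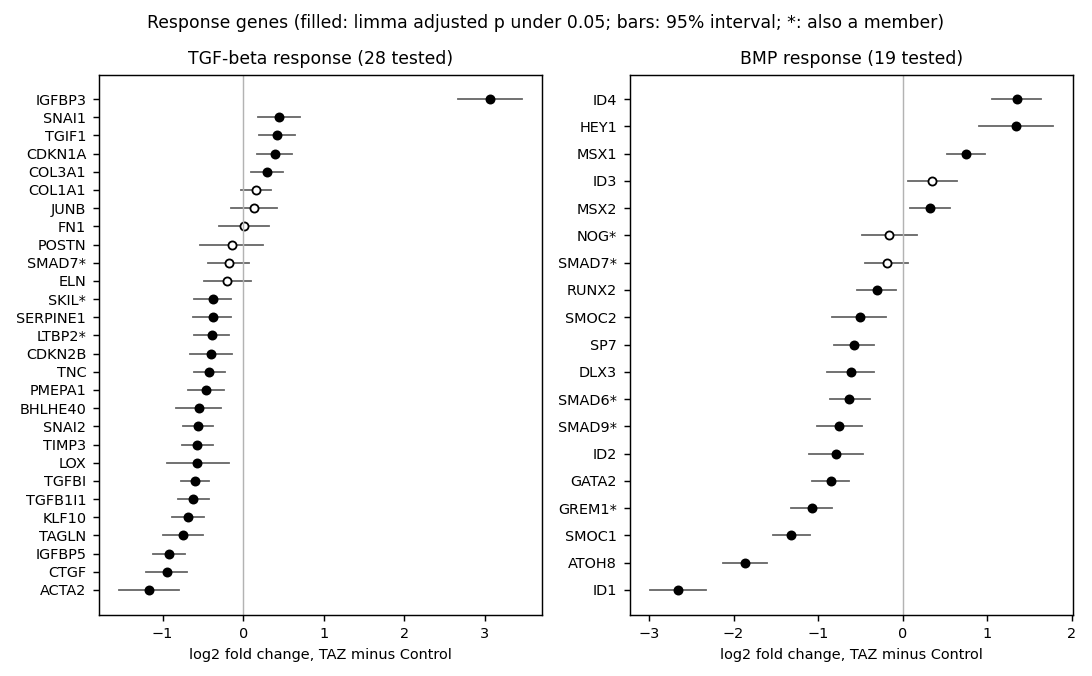
Log2 fold change (TAZ minus control, log2(FPKM + 1) scale) with 95% intervals of 28 TGF-beta response genes and 19 BMP response genes, filled at a limma adjusted p under 0.05, with members starred. Most points lie left of 0, and IGFBP3 at 3.06 and ID1 at -2.66 lie farthest from it.

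Leukocyte markers, 9 measured of 10, summed to 27.4 to 28.4 FPKM in TAZ libraries and 13.9 to 17.1 FPKM in control libraries, with PTPRC listed at 0 in all 6. CD14, a monocyte surface protein, made up most of that sum and rose, at 24.2 ± 0.421 FPKM in TAZ libraries and 9.58 ± 1.38 FPKM in control libraries (limma adjusted p = 6.8e-07). CD68 fell, at 2.86 ± 0.333 FPKM in TAZ libraries and 4.53 ± 0.437 FPKM in control libraries (adjusted p = 0.00185). Epithelial markers summed to 1.66 to 1.96 FPKM in TAZ libraries and 1.64 to 2.5 FPKM in control libraries, and skeletal muscle markers to 0.533 to 0.657 FPKM in TAZ libraries and 1.25 to 1.66 FPKM in control libraries. The part of other cell types in the members' changes was not tested.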

How the data were processed

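Per the labels' protocols, RNA was taken up in TRIzol before library preparation with a VAHTS Universal kit. The submitters' processing notes list fastp, HISAT2 and HTSeq. A genome build, a strand setting and a rule for shared reads were not given in the sources used here; no coordinates are printed, and paralogs and overlapping genes stay uncertain. The authors deposited FPKM per gene, per the file headers, in 1 table per group. Of 16285 rows, 23 with a date for a symbol were left out. Fragment totals and gene lengths were recovered from the steps of low values, in multiples of 0.5 fragments. The limit at 0 covers counting error only.

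Genes at 1 FPKM or more in 3 or more libraries were tested as log2(FPKM + 1) with limma 3.58.1 in R 4.3.3 (mean-variance trend, two-sided, Benjamini-Hochberg over all kept genes, threshold 0.05), a procedure tested on simulated data. The simulated libraries varied independently, without the length-linked variation seen here, so they cannot show how often these data give false calls. Samples were grouped by title. Members, branches, lists and tests were chosen with earlier results of these data known. Every member is accounted for, with values per library for called members past 1.3-fold on the log2(FPKM + 1) scale and for those that complete a role group. From each list the 4 genes with the lowest adjusted p and the first in the less frequent direction are named. ACTA2, TAGLN, ID2, ID3, the other TGF-beta response genes that rose, GATA2, SP7, CD14, CD68 and the ratios were chosen after their values were seen. So were CIDEC, LIPE, VWF, TEK and the response genes named for calls lost with single libraries left out. The same holds for DCN, FMOD, HEY1, MSX1, MSX2, DLX3, RUNX2 and SMOC2. Other settings tried were 0.1 and 0.5 as pseudocounts, quantile normalization, median-ratio scaling, no filter, a stricter one (mean of 5 FPKM), no trend, a replicate block, libraries left out, and voom on recovered fragments rounded to whole numbers.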

Additional observations from a re-analysis of the deposited data

How the results depend on the processing

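The counts of 7 members higher and 13 lower stayed within 1.5 times under all alternatives run. They were 7 and 13 with pseudocounts of 0.1 and 0.5, quantile normalization, no trend and the replicate block, although under quantile normalization FSTL1 was called in place of GDF15. The counts ran from 5 to 7 higher and from 13 to 14 lower when 1 library was left out, and 4 lower in the BMP branch became 2 with the filter at a mean of 5 FPKM, which removes BMP2 and SMAD9. TGF-beta and activin members that rose ranged from 2 to 4 with 1 library left out. Among members that did not pass, BMPR2 (0.027) and GDF11 (0.0094) changed sign under median-ratio scaling and BMPR1A (-0.022) and SMAD5 (-0.0053) under quantile normalization. Leaving out 1 library, these log2 fold changes ranged from -0.065 to 0.15 for BMPR1A, from -0.093 to 0.12 for SMAD5 and from -0.14 to 0.082 for BMPR2. The cause was not tested. Same-numbered libraries did not vary together (correlations of deviations -0.436, -0.112 and -0.403). In several libraries these deviations also followed gene length, so they cannot show whether the numbers pair the samples. The highest correlations were between differently numbered libraries, TAZ 1 and control 3 (0.691), TAZ 2 and control 1 (0.534) and TAZ 3 and control 2 (0.552), and no block was fitted on them. With the replicate block no member's call changed, and over all genes 1548 genes were higher and 1964 lower, against 1693 and 2381 without it. That fit has 2 residual degrees of freedom and takes each gene's spread wholly from genes of like level, so its p-values say little of a single gene. Changes of BMP6, BMP7, GDF5 and GDF6 were not detectable at this depth.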
